A study of Mus musculus with 8 samples.

Results

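The CC chemokine genes Ccl3, Ccl4, Ccl5, Ccl6 and Ccl9 and the neighbouring gene Wfdc17 lie together on mouse chromosome 11, and their 6 rows were taken by symbol from the 24346 gene symbols measured in every library. They were chosen by their FPKM differences after culture with red blood cells (RBCs), which earlier results of the same libraries had shown for Ccl9, Ccl4 and Wfdc17. The differences with RBCs are therefore given below as a description, without a test. RNA was sequenced from bone marrow cells of WT mice of the C57BL/6 background, aged as young to mature adults. The LSK libraries were made from lineage-negative cells positive for Sca-1 and c-Kit, a gate in which stem cells are a minority among multipotent progenitors. The HSC libraries came from the CD48- CD150+ fraction of that gate, which the labels call LT-HSC. All 4 groups (HSC or LSK cells, without RBCs or with RBCs) held 2 libraries each and were kept for 1 day in serum-free medium with cytokines, lysed to remove RBCs and sorted as CD45-positive cells. The RBCs were mouse blood cells passed through a leukocyte filter and irradiated. The sort selected CD45-positive cells alone, so cells that had differentiated in culture stayed in the libraries. Any leukocytes left among the RBCs after the filter would have stayed too, and their share was not tested. Nothing in the labels says whether the libraries of a group came from separate mice or cultures, so every p-value measures the spread between these libraries, which may be technical.

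CC chemokines are small secreted proteins that attract leukocytes through G protein-coupled receptors, and several of them are made by myeloid cells and by blood progenitors themselves. Ccl3, Ccl5, Ccl6 and Ccl9 are ligands of Ccr1. Ccl3 is also known as an inhibitor of the proliferation of stem and progenitor cells. RBCs of mammals can carry the atypical chemokine receptor Ackr1, the Duffy antigen, which binds many inflammatory chemokines without signalling. Wfdc17 is not a chemokine. It encodes a small secreted protein with a WAP domain, the fold of protease inhibitors such as Slpi, and is known from activated macrophages.

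In GENCODE M21 (GRCm38, the mm10 build named in the submitters' processing notes), the 6 genes span 180.5 kb. Ccl5 (chr11:83525778-83530518), Ccl9 (chr11:83572919-83578636), Ccl6 (chr11:83587882-83593087) and Ccl3 (chr11:83647844-83649355) lie on the minus strand, and Ccl4 (chr11:83662584-83664683) and Wfdc17 (chr11:83703991-83706268) on the plus strand. All 6 are annotated as protein-coding genes. The span of Ccl6 overlaps that of E230016K23Rik on the other strand, and the cDNA kit does not mark strand, so reads of the pair could be told apart only by their sequence. Of all 50-base windows of their transcripts, none was shared with a transcript of another gene, on either strand, for 5 members, Ccl6 among them. For Ccl9, 1.97% of the windows were shared.

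RefSeq (GRCm38.p6) gave a start site for 4 of the 6 genes, and the bases before it are shown because 3 of these genes were lower together in HSCs with RBCs. Ccl4 and Ccl5 were not analysed here for upstream sequence. Each sequence is written 5′ to 3′ on the strand of the gene and ends before the RefSeq start, or for Wfdc17 before the earlier start in GENCODE. Capitals mark matches to 7 motifs searched on both strands, except the TATA box, TATAAA, which was searched on the strand of the gene. The others were the PU.1 core GAGGAA, the AP-1 motif TGANTCA, the C/EBP motif TTGCNNAA, the RBPJ core TGGGAA, the N box CACNAG bound by Hes proteins, and the NF-kB motif.
Ccl9, chr11:83578637-83578886, minus strand: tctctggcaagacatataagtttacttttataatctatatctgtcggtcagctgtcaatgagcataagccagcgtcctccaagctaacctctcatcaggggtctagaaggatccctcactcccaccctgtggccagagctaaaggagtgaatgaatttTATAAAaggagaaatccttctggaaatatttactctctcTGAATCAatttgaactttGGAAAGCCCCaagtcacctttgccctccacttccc
Ccl3, chr11:83649379-83649628, minus strand: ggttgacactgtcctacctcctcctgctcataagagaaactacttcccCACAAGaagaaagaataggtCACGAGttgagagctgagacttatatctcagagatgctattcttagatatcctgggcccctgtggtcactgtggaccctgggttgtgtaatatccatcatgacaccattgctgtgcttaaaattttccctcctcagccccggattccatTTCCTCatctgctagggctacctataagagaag
Wfdc17, chr11:83703806-83703990, plus strand: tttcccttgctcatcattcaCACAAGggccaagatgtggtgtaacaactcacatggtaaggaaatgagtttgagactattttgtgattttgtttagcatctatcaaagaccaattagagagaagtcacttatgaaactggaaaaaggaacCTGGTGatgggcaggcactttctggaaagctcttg
Ccl6, chr11:83593088-83593337, minus strand: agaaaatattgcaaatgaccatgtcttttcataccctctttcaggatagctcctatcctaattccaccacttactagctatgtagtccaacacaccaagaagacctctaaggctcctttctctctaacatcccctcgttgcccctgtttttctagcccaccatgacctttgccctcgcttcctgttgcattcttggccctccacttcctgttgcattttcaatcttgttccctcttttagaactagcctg

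Ccl9 held a TATA box match, at bases -92 to -87 from the start, an AP-1 match and an NF-kB match. These motifs were found in 7.59%, 6.75% and 7.25% of the 250-base upstream windows of 32851 promoters. Ccl3 held a match to the PU.1 core, which 23.3% of all windows hold, and 2 to the N box, which 36.7% hold. Wfdc17 also held 2 N box matches, as CACAAG and as CTGGTG on the other strand, and 1 PU.1 core match in transcribed bases that are not printed. Ccl6 held no match to any of the 7 motifs, and none of the searched members held the C/EBP motif or the RBPJ core, found in 9.56% and 21.6% of all windows. Ccl9 and Ccl6 shared a run of 13 bases, gccctccacttcc, 14 bases before the start of Ccl9 and 55 before that of Ccl6, and no other pair of the printed sequences shared more than 9. Among the genes that were lower together, Ccl3, Ccl9 and Wfdc17 thus had no motif of this search in common. The N box and PU.1 matches of Ccl3 and Wfdc17 were not found in the 250 bases before Ccl9. Ccl4, which was lower too, was not searched.

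The authors deposited 1 FPKM value per gene and library, which is a level per length of transcript and is comparable between genes. Each FPKM value of the 6 genes was a whole multiple of a single step once the relative depth of the libraries, 0.886 to 1.13 with the first LSK control library set to 1, was taken into account. These multiples give the reads behind each value, from 10 to 3213 for the 6 genes, or fewer reads than were sequenced if all values of a gene share a factor. The 6 genes together held between 0.00891% and 0.108% of the summed FPKM of a library. In bulk RNA, fewer cells of a type and less RNA per cell cannot be told apart.

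Ccl3 had an FPKM of 4.46 and 8.16 in HSCs without RBCs and of 2.11 and 1.87 with RBCs. In LSK cells it stood at 110 and 74.5 without RBCs and at 126 and 134 with RBCs. The group means were therefore in the order LSK with RBCs (130 ± 5.73, SD, n = 2), LSK without RBCs (92.2 ± 25.1), HSC without RBCs (6.31 ± 2.61) and HSC with RBCs (1.99 ± 0.174), and no neighbouring groups overlapped. The libraries with RBCs were the 2 lowest among HSCs and the 2 highest among LSK cells, an order that Wfdc17 alone among the other members shared. How many of all tested genes have this order was not counted. The HSC values rested on few reads, 38 and 57 without RBCs and 16 in each library with RBCs.

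Ccl4, made by many of the same cells as Ccl3, stood at 24.2 and 29.8 in HSCs without RBCs and at 10.4 and 6.93 with RBCs. The LSK libraries held 69.2 and 48.4 as controls and 55.1 and 57.4 with RBCs. Both LSK groups overlapped and differed by less than their spread, and both lay above both HSC groups, which did not overlap each other. Ccl3 and Ccl4 start 13.3 kb apart on opposite strands, and their ratio differed between the cell types. Ccl3 was above Ccl4 in each of the 4 LSK libraries and below it in each of the 4 HSC libraries.

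Ccl9, a ligand of Ccr1 found in rodents, stood at 14.8 and 16.0 in HSCs without RBCs and at 2.69 and 4.69 with RBCs. In LSK cells it lay at 72.4 and 78.5 without RBCs and at 65.5 and 75.5 with RBCs. The pattern was that of Ccl4, with overlapping LSK groups above 2 separate HSC groups, and the ratio of the HSC means, 15.4 ± 0.838 against 3.69 ± 1.41 with RBCs (SD, n = 2 each), was the largest of the 6 genes. Summed over the 8 libraries, Ccl9 had the most reads of the group, with 612 and 542 in the HSC controls and 99 and 195 with RBCs.

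Wfdc17 had the highest FPKM of the 6 genes in 8 of 8 libraries. It stood at 77.5 and 98.7 in HSCs without RBCs and at 30.1 and 31.6 with RBCs. In LSK cells it stood at 204 and 139 in the controls and at 391 and 439 with RBCs. All 4 groups were separate, and the means ran from 30.9 ± 1.06 in HSCs with RBCs over 88.1 ± 15 and 172 ± 46.2 to 415 ± 33.9 in LSK cells with RBCs (SD, n = 2 each).

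Ccl6 and Ccl5 did not share this pattern. Ccl6, another rodent ligand of Ccr1 and the nearest chemokine gene to Ccl9, was the lowest of the group in 3 of 4 HSC libraries, at 1.22 and 0.809 without RBCs and at 0.622 and 2.75 with RBCs, which overlap. In LSK cells it lay at 4.91 and 2.96 without RBCs and at 9.90 and 10.8 with RBCs, without overlap. Ccl5, a ligand of Ccr1 and Ccr3, stood at 14.7 and 11.7 in HSCs without RBCs and at 17.5 and 21.4 with RBCs. In LSK cells it lay at 10.1 and 4.96 without RBCs and at 8.40 and 21.0 with RBCs, so that the 2 LSK libraries with RBCs spanned most of the range of this gene. No neighbouring groups in the order of Ccl5 differed by more than the sum of their SDs.

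**Figure D1:**
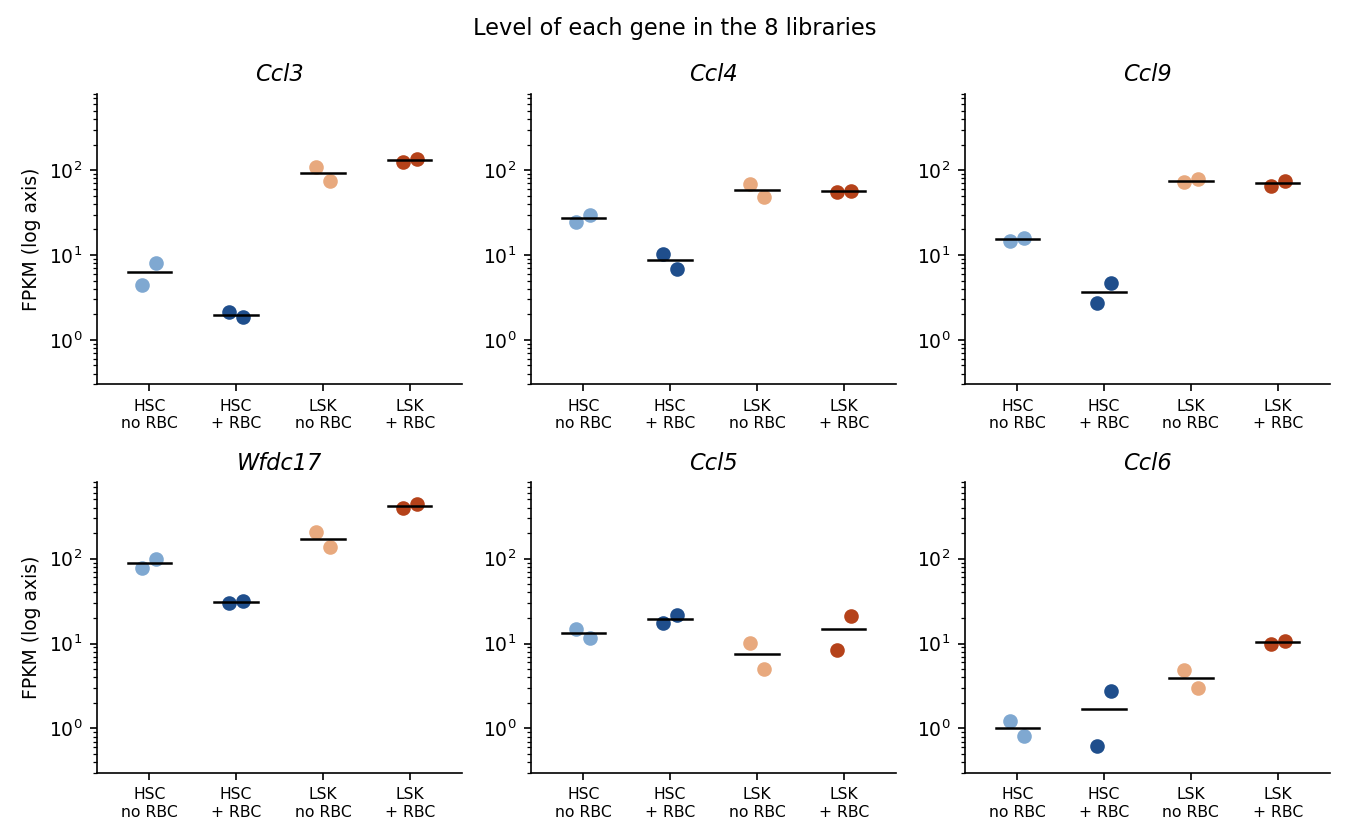
FPKM (log axis) of each of the 6 genes in HSC and LSK libraries without and with RBCs, with 1 point per library and a line at the mean of each group of 2. Ccl3, Ccl4, Ccl9 and Wfdc17 were lowest in the HSC libraries with RBCs, at 1.87 to 31.6, while the HSC libraries with RBCs of Ccl5 reached 21.4, the highest value of that gene.

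The fold changes put these values on 1 scale, log2(FPKM + 1), which understates the change of low genes. In HSCs, the log2 fold change with RBCs was -1.84 for Ccl9 (standard error 0.176), -1.55 for Ccl4 (0.198), -1.47 for Wfdc17 (0.168) and -1.24 for Ccl3 (0.235). As plain ratios of mean FPKM, levels without RBCs were 4.17, 3.12, 2.85 and 3.17 times those with RBCs. Ccl5 and Ccl6 had log2 fold changes of 0.53 (0.379) and 0.30 (0.350). By the call used for all genes (limma, adjusted p under 0.05 and at least 2-fold), 4 of the 6 genes were lower and 0 higher in HSCs with RBCs, beside 0.142% of the 12003 tested genes called lower and 0.633% called higher. The members were chosen with this contrast known, so the count describes the choice. The call of Ccl3 was lost when any of 5 single libraries was left out, and its log2 fold change was -0.87 without the second HSC library without RBCs.

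In LSK cells the same 4 genes did not move together. The log2 fold change with RBCs was 1.29 for Wfdc17 (standard error 0.168), 1.23 for Ccl6 (0.350), 0.82 for Ccl5 (0.379) and 0.52 for Ccl3 (0.235). Ccl4 and Ccl9 had values of -0.04 (0.198) and -0.10 (0.176), close to 0. Wfdc17 was the single member called, as higher, beside 0.9% of all tested genes called higher and 0.108% called lower. Without the second LSK library with RBCs, 0 members were called, and the log2 fold change of Wfdc17 stayed at least 1.02 whichever library was left out.

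The difference between both effects, HSC minus LSK, was negative for all 6 genes. It was -2.77 for Wfdc17, -1.76 for Ccl3, -1.74 for Ccl9 and -1.51 for Ccl4 on the log2 scale, against -0.93 for Ccl6 and -0.29 for Ccl5. Wfdc17 and Ccl9 were called as lower in this contrast, beside 0.075% of all tested genes called lower and 0.0333% called higher, and this contrast was also known when the genes were chosen. The call of Ccl9 was lost in 11 of 16 alternative settings and that of Wfdc17 in 2 of 16. The difference for Wfdc17 came from opposite signs in the cell types, and that for Ccl9 and Ccl4 from HSCs, with LSK values near 0. The median over the 6 genes was -1.62, against 0.001 over all tested genes.

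**Figure D2:**
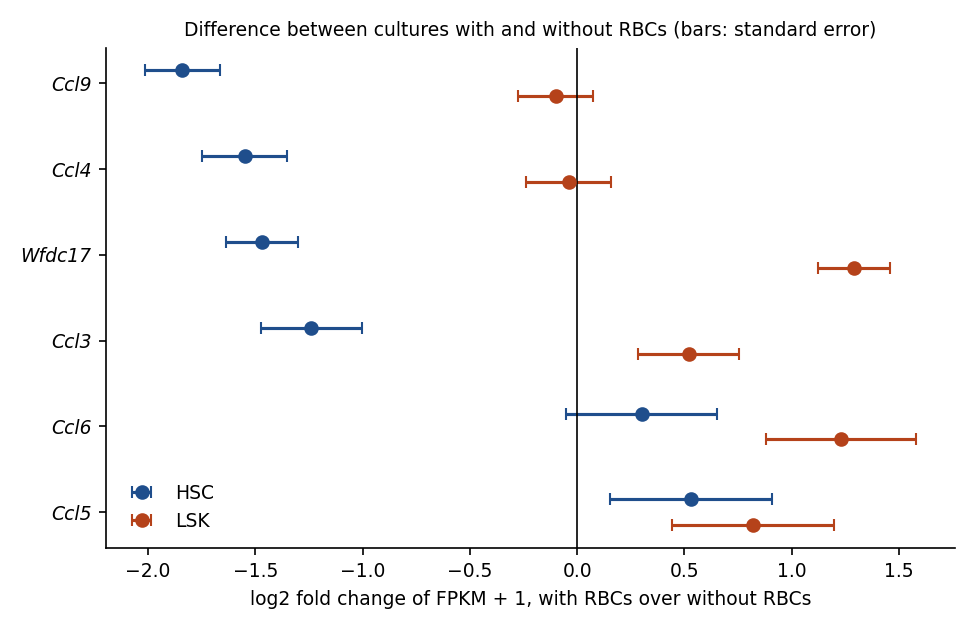
Log2 fold change of FPKM + 1 with RBCs over without RBCs for each of the 6 genes (points) with its standard error (bars), in HSCs (blue) and LSK cells (orange). Ccl9, Ccl4, Wfdc17 and Ccl3 ranged from -1.84 to -1.24 in HSCs, and in LSK cells from -0.10 to 1.29.

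A comparison that the choice of the genes did not use directly is that of LSK cells with HSCs without RBCs, although it draws on the same control libraries. On the log2 scale, Ccl3 was higher in LSK cells by 3.69 (standard error 0.235, limma adjusted p = 2.6e-05), Ccl9 by 2.22 (adjusted p = 9.3e-05), Ccl6 by 1.27 (adjusted p = 0.0410) and Ccl4 by 1.08 (adjusted p = 0.00753). These 4 genes passed the threshold as higher, and 0 as lower, beside 1.62% and 1.03% of all tested genes. Wfdc17 differed by 0.94 (adjusted p = 0.00681), under the 2-fold limit, and Ccl5 by -0.80 (standard error 0.379, adjusted p = 0.204), the single member with a lower mean in LSK cells. As ratios of mean FPKM, LSK cells were 14.6 times above HSCs for Ccl3, 4.90 for Ccl9, 3.89 for Ccl6, 2.18 for Ccl4 and 1.95 for Wfdc17. Without the first LSK or the first HSC control library, only Ccl3 and Ccl9 remained called, Ccl4 then differing by 0.83 and 0.94. Ccl6 lost its call when any 1 of 6 libraries was left out.

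With RBCs the gap between the cell types was wider for 5 of the 6 genes. The log2 fold change of LSK cells over HSCs was 5.46 for Ccl3, 3.96 for Ccl9, 3.70 for Wfdc17, 2.59 for Ccl4 and 2.2 for Ccl6, and all 5 were called higher and 0 lower, beside 2.61% and 1% of all tested genes. Ccl5 stood at -0.50. In ratios of mean FPKM, the gap for Ccl3 went from 14.6 to 65.6 and that for Wfdc17 from 1.95 to 13.4. These values contain the differences with RBCs known when the genes were chosen, so both the values and the count of calls are a description only.

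Among the CC chemokine receptors, Ccr1 and Ccr2 were higher in LSK cells with RBCs. Of 16 CC chemokine receptor genes, 7 passed the filter on low values. In LSK cells, 3 of the 7 rose with RBCs (limma, adjusted p under 0.05 and at least 2-fold) and 0 fell, beside 0.9% and 0.108% of all tested genes. Ccr1 was among them, as was Ccr2, the receptor by which monocytes leave the bone marrow. The median log2 fold change over the 7 genes was 0.58, against -0.01 over all tested genes.

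Ccr1, the receptor of Ccl3, Ccl5, Ccl6 and Ccl9, went from an FPKM of 1.57 and 1.02 to 4.42 and 3.71 in LSK cells with RBCs (log2 fold change 1.15, standard error 0.222, adjusted p = 0.0254). Ccr2 went from 7.61 and 4.57 to 34.4 and 35.0 (log2 fold change 2.37, adjusted p = 5.8e-04). The call of Ccr1 was lost without any 1 of the 4 LSK libraries, while that of Ccr2 held in all 17 alternative settings.

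In HSCs, 0 of the 7 receptors passed the threshold with RBCs, and 3 had an unadjusted p under 0.05 in the same limma fit. Ccr1 stood at 0.232 and 0.0315 in the controls and at 1.42 and 0.770 with RBCs (log2 fold change 0.88, adjusted p = 0.0877). Its summed reads were 10 and 79, a ratio per unit of depth of 7.59 with a 95% exact interval of 3.92 to 16.4 that covers counting error only. Ccr2 stood at 0.840 and 0.976 in the controls and at 1.87 and 2.09 with RBCs (log2 fold change 0.64, adjusted p = 0.157). For both receptors, both HSC libraries with RBCs lay above both without, the order opposite to that of Ccl3, Ccl4, Ccl9 and Wfdc17 in the same cells. The effect of RBCs was not shown to differ between the cell types for these receptors, the difference HSC minus LSK being -1.72 for Ccr2 (adjusted p = 0.0645) and -0.27 for Ccr1 (adjusted p = 0.775).

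Ackr1, the chemokine receptor of RBCs, was not called in either cell type. In HSCs it stood at an FPKM of 3.22 and 5.15 in the controls against 4.59 and 3.13 with RBCs. The LSK libraries held 5.96 and 7.74 as controls against 6.18 and 4.97 with RBCs. The log2 fold changes were -0.08 (standard error 0.229) and -0.25 (standard error 0.229). Ccr3, a receptor of Ccl5, was below the filter, with at most 16 reads in a library, and was listed at 0 in both HSC libraries without RBCs. Between LSK cells and HSCs without RBCs, Ccr1, Ccr2 and Ccr9, a receptor of thymus-homing progenitors, were higher in LSK cells, by 1.01 (adjusted p = 0.0164), 1.86 (adjusted p = 4.4e-04) and 1.87 (adjusted p = 6.0e-04) on the log2 scale.

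**Figure D3:**
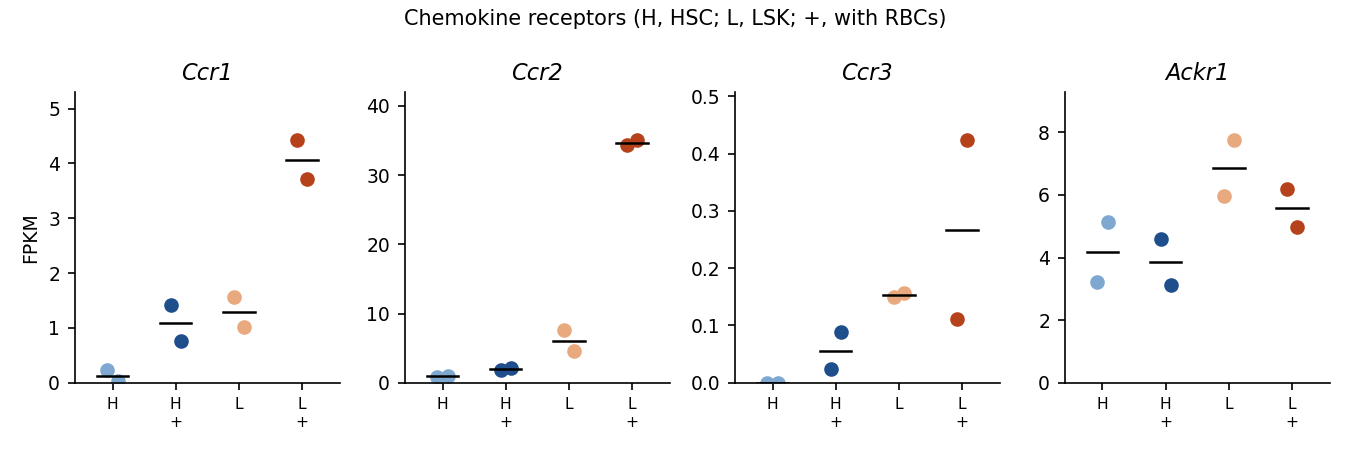
FPKM (linear axes starting at 0, each panel with its own range) of 4 chemokine receptor genes, with 1 point per library and a line at the mean of each group of 2 (H, HSCs; L, LSK cells; +, with RBCs). Ccr1 and Ccr2 were highest in the LSK libraries with RBCs, at 3.71 to 35.0, while the groups of Ackr1 with and without RBCs overlapped in each cell type.

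Few chemokine ligands outside the cluster were detected. Of 15 other CC ligand genes, 3 passed the filter (Ccl19, Ccl25 and Ccl27a), and 0 were called with RBCs in either cell type, with 1 at an unadjusted p under 0.05 in each. Ccl19, a lymphocyte attractant, passed the adjusted p but not the 2-fold limit in LSK cells (log2 fold change 0.79, adjusted p = 0.0424). Ccl27a had FPKM values between 17.4 and 33.3 and Ccl25 between 4.95 and 7.72 over the 8 libraries. The monocyte attractants Ccl2 and Ccl7, near the cluster in the genome but outside the window described below, had at most 1 read in a library. Of 16 CXC, XC and CX3C ligand genes, 4 passed the filter, and 1 was called lower with RBCs in LSK cells, beside 0.108% of all tested genes. Pf4, a chemokine of platelet granules, fell in LSK cells with RBCs, from 130 and 37.8 to 13.5 and 19.1 (log2 fold change -2.06, standard error 0.436, adjusted p = 0.0376), and it was the only one called. Its 2 control libraries lay far apart, and the call was lost in 9 of 17 alternative settings. In HSCs Pf4 stood at 148 and 115 without RBCs and at 106 and 101 with RBCs (log2 fold change -0.33, adjusted p = 0.839).

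Of the other WAP domain genes, 1 was called with RBCs. Among 9 such genes, 4 passed the filter, and 1 was called higher in HSCs, beside 0.633% of all tested genes. Slpi, an inhibitor of neutrophil proteases, rose in HSCs, where Wfdc17 was lower, from FPKM values of 0.102 and 0.871 to 2.53 and 2.64 (log2 fold change 1.32, standard error 0.245, adjusted p = 0.0251). This rested on 8 reads without RBCs and 48 with RBCs, a ratio per unit of depth of 5.76 with a 95% exact interval of 2.70 to 14.1, and the call was lost in 7 of 17 alternative settings. In LSK cells Slpi stood at 8.96 and 11.4 without RBCs and at 16.6 and 21.3 with RBCs (log2 fold change 0.83, adjusted p = 0.110). Wfdc18, which starts 5.0 kb after Wfdc17 on the same strand, stood at 1.23 and 4 in the HSC controls and at 0 and 0.815 with RBCs, which did not pass the test (log2 fold change -1.31, standard error 0.40, adjusted p = 0.156). Its reads were at most 24, and it shared no 50-base window with Wfdc17.

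Several of the chemokine genes are textbook targets of NF-kB, the transcription factor of inflammatory signalling. Of 15 genes of the NF-kB response, 14 passed the filter, and 0 were called with RBCs in HSCs or in LSK cells, with 3 and 4 at an unadjusted p under 0.05 in the limma fit. Icam1, a leukocyte adhesion molecule, stood at 30.0 and 29.0 in the HSC controls and at 58.0 and 45.4 with RBCs, and passed the adjusted p but not the 2-fold limit (log2 fold change 0.78, adjusted p = 0.0123). Traf1, a TNF receptor adaptor, did so in LSK cells (log2 fold change 0.69, adjusted p = 0.0492). Nfkbia, the inhibitor that NF-kB induces, had FPKM values between 52.7 and 58.0 in the 4 HSC libraries (log2 fold change -0.01, adjusted p = 0.972). In LSK cells it stood at 64.6 and 62.5 without RBCs and at 77.7 and 83 with RBCs (log2 fold change 0.33, limma adjusted p = 0.052). Nfkb1, a subunit of the factor, lay between 60.0 and 72.6 in the 4 HSC libraries (log2 fold change 0.02, adjusted p = 0.954). Over the 14 genes, log2 fold changes had a median of 0.03 (HSCs) and 0.18 (LSK cells), against -0.006 and -0.01 over all tested genes.

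The genes around the cluster were read in the same fit. Within 500 kb on either side of the 6 genes, GENCODE annotates 59 genes, of which 34 had a row in the files and 28 of these were no members. Of the 28, 18 passed the filter, and 0 were called with RBCs in HSCs or in LSK cells, with 3 and 0 at an unadjusted p under 0.05 in the limma fit. Their median log2 fold change was -0.02 in HSCs and 0.00 in LSK cells. Slfn2, a Schlafen gene of lymphocyte quiescence, was lower in LSK cells than in HSCs without RBCs by 1.32 on the log2 scale (-1.32, adjusted p = 1.3e-05), and Wfdc18 was higher in LSK cells with RBCs (2.03, adjusted p = 0.00668). Within the cluster, Ccl6 lies between Ccl9 and Ccl3, and the starts of Ccl9 and Ccl6 are 14.5 kb apart with log2 fold changes in HSCs of -1.84 and 0.30.

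**Figure D4:**
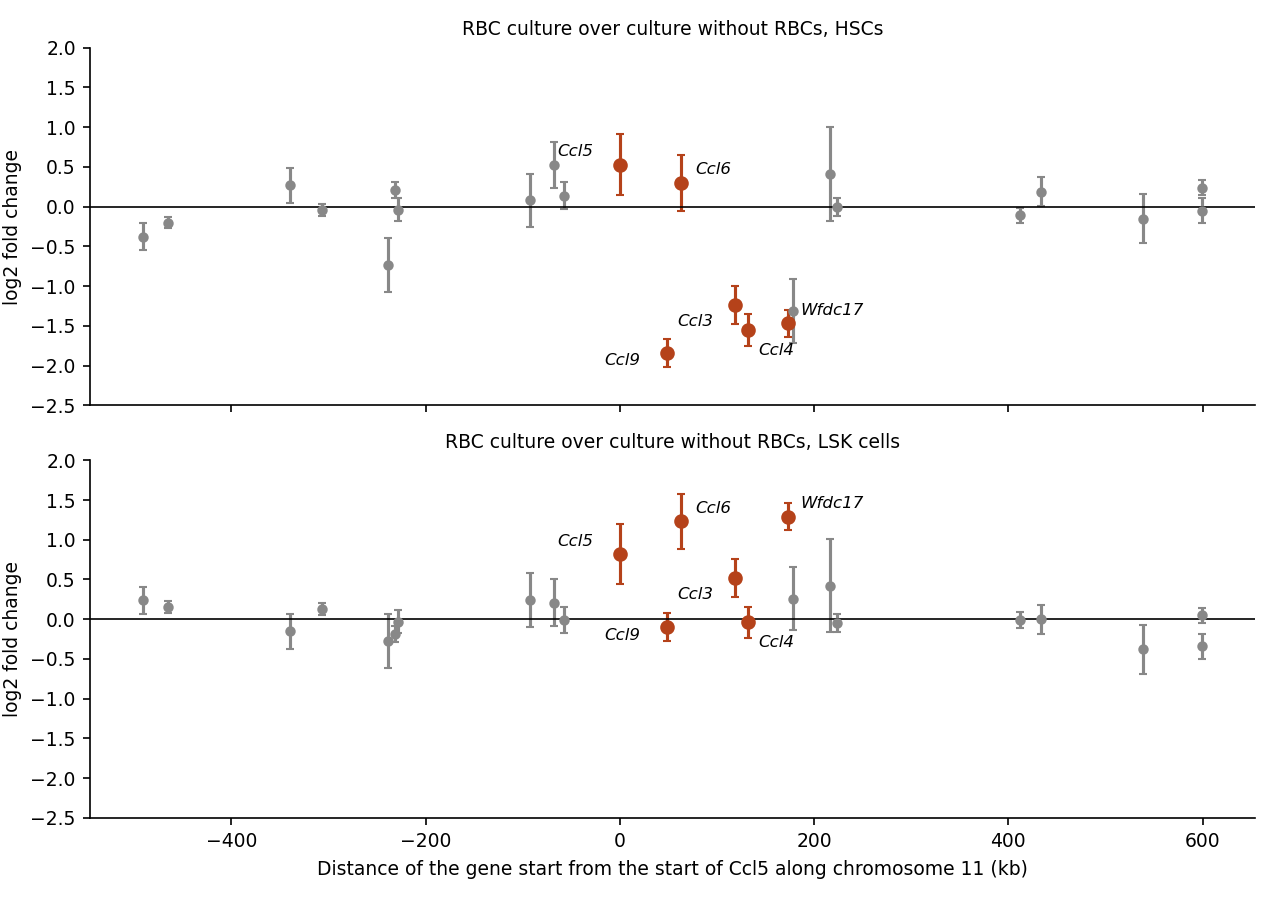
Log2 fold change with RBCs over without RBCs, with its standard error, of each tested gene within 500 kb of the cluster, against the distance in kb of its start from the start of Ccl5, in HSCs (top) and LSK cells (bottom). The 6 genes of the cluster are orange and named, and 18 other genes are grey. In HSCs, Ccl9, Ccl3, Ccl4 and Wfdc17 lay at -1.24 or below, and the only grey point in that range was Wfdc18 at -1.31.

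Across the 8 libraries, which fall into 4 groups and share the large difference between the cell types, the levels of Ccl3, Ccl4, Ccl9 and Wfdc17 ran alike, with Pearson's r between 0.92 and 0.96 for their 6 pairs. Ccl6 correlated with these 4 at 0.63 to 0.83, and Ccl5 with the other members at -0.59 to -0.11. These are descriptions of 8 points. The genes with the most similar levels were Gpr160, Nhej1 and Plek for Ccl3 (r of 0.996, 0.995 and 0.992) and Gltscr2, Myb and 2410004P03Rik for Ccl4 (0.980, 0.978 and 0.977). For Ccl9 they were Dpp4, Cd48 and 2410004P03Rik (0.991, 0.991 and 0.989), and for Wfdc17 Pnrc1, Arid4a and Ptprc (0.992, 0.985 and 0.982). Sgpp1, Ptcra and F13a1 were nearest to Ccl6 (0.978, 0.977 and 0.975), and Tspan9, Fn1 and 4930579K19Rik to Ccl5 (0.929, 0.926 and 0.918).

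Some cell type markers also differed with RBCs, in both directions. Over all tested genes, 0.633% were called higher and 0.142% lower in HSCs with RBCs, and 0.9% and 0.108% in LSK cells. Cd48, whose absence on the surface defines the HSC gate, stood at 42.7 and 40.5 in the HSC controls and at 16.0 and 22.8 with RBCs (log2 fold change -1.08, adjusted p = 0.00694), the same direction as Ccl3, Ccl4, Ccl9 and Wfdc17. It was 1 of 3 genes of the multipotent progenitor list. Of these, Flt3 had a log2 fold change of -0.17 (adjusted p = 0.691) and Cd34 one of 0.54 (adjusted p = 0.0028, under 2-fold). The sum of that list was 379 to 385 in the HSC controls and 493 to 514 with RBCs. The list of HSC markers summed to 172 to 174 in the HSC controls and 139 to 140 with RBCs, with 0 of 7 genes called. Among these, Procr passed the limma adjusted p but not the 2-fold limit (log2 fold change -0.52, adjusted p = 0.0149). Of the granulocyte-monocyte progenitor list, 1 of 5 tested genes fell in HSCs with RBCs, Mpo, from 17.8 and 11.1 to 6.16 and 2.82 (adjusted p = 0.0214), and of the mast cell and basophil list 1 of 5, Fcer1a, from 2.66 and 5.38 to 0.187 and 0.248 (adjusted p = 0.00598). The summed level of the progenitor list was 248 in both HSC libraries without RBCs and 222 and 223 with RBCs, against 772 to 1080 in LSK cells. In HSCs most of that sum was Prtn3, at 208 to 231. The mast cell and basophil list summed to 72.3 to 80.7 in the HSC controls and 78.8 to 79.8 with RBCs. In LSK cells it summed to 85.4 to 98.7 and 94.6 to 151. In HSCs most of the sum was Gata2, at 65.0 to 78.3, while Cpa3 was at or below 2.83 and Mcpt8 at 0. Of the protease genes of the list, Cma1 was listed at 0 in every library. In LSK cells Cpa3 stood at 17.8 to 29.0, Mcpt8 at 3.65 to 13.6 and Prss34 at 0.646 to 52.4. Summed monocyte or macrophage markers were 402 to 436 in the HSC controls and 331 to 333 with RBCs, most of it Lyz2, at 218 to 321. By the limma call, 1 of 6 tested genes, Csf1r, rose (log2 fold change 1.32, adjusted p = 0.0121) and 0 fell. In LSK cells the same sum was 278 to 367 in the controls and 500 to 616 with RBCs. Csf1r and Ccr2 were called as higher there, the direction of Wfdc17. Ccr2 is the same gene as in the receptor list above, so it adds no separate observation.

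Summed neutrophil markers in HSCs were 32.4 to 39.3 in the controls and 88.5 to 299 with RBCs. There 2 of 11 genes, S100a8 and S100a9, were called higher, beside 0.633% of all tested genes. In LSK cells the sums were 188 to 285 and 447 to 654. Of the 11 genes, 3 were called higher there, Mmp8, Mmp9 and Retnlg, beside 0.9%. In the 2 HSC libraries with RBCs, S100a8 stood at 148 and 22.3 and S100a9 at 87.9 and 11.8. Red blood cell genes summed to 110 to 123 in HSCs and 55.8 to 64.5 in LSK cells with RBCs, and to at most 2.03 without. The 8 genes of the T or NK cell list, markers of cells that make Ccl5, summed to 58.4 to 63.4 in the HSC controls and 40.6 to 47.2 with RBCs, and in LSK cells to 183 to 186 and 134 to 140. Most of that sum was Nkg7, at 39.8 to 184 over the 8 libraries, while the T cell receptor genes Cd3e and Cd3d were at or below 0.290 in every library. What part these cell types had in the levels of the 6 genes was not tested. The gates themselves were visible in the libraries. Without RBCs, Cd48 and Flt3 were higher in LSK cells than in HSCs by 1.96 and 2.13 on the log2 scale, and Procr, Slamf1 and Hlf were lower, at -0.83, -1.03 and -0.71.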

How the data were processed

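RNA of HSCs and LSK cells cultured for 1 day with or without RBCs was sequenced as full-length cDNA in 8 libraries. The authors deposited 1 FPKM value per gene symbol and library, and replicates were not pooled. The submitters' processing notes name TopHat2 2.1.1, Bowtie2 2.2.8, SAMtools 0.1.18, Cuffdiff 2.2.1 and the build mm10, without their roles. Groups came from the sample titles.

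The 6 genes, the gene lists and the tests were chosen with earlier results of these data known. A gene entered the fit where 2 or more libraries reached an FPKM of 1, which 12003 genes did, among them all 6 members, and log2(FPKM + 1) was computed from the deposited values. limma 3.58.1 (R 4.3.3) with a mean-variance trend fitted the 4 group means together, with 4 residual and 5.18 prior degrees of freedom. A gene was called at a Benjamini-Hochberg adjusted p under 0.05 over all tested genes and a change of at least 2-fold. For a single gene, the smallest two-sided p of an exact permutation of 2 against 2 libraries is 0.333, so each call borrows the spread of other genes. The procedure was tested on simulated data.

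The genes named are the 6 genes, genes of the lists that were called with RBCs (or, where none was, the 2 with the highest mean FPKM), 4 receptors fixed by name, neighbouring genes that were called, and the 3 genes most correlated with each member. A further receptor is not reported here. Other genes are named after their values were seen. The lists cover other CC ligands, other chemokines, CC receptors, WAP domain genes, the NF-kB response and cell type markers.

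Relative depth was read from the recurring ratios of genes with a mean FPKM under 1. Among 1723 such genes above 0 in every library, 1408 (81.7%) gave whole reads within 0.02 of a read. The absolute depth is unknown, and intervals on reads cover counting error only, not molecules. Positions came from GENCODE M21 and upstream sequences from RefSeq, with Python 3.11.15, numpy 2.4.6 and scipy 1.17.1. The alternatives tried were the pseudocount, filters, scalings, a replicate block, the trend, the fold threshold, the samples fitted and the omission of each library.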

Additional observations from a re-analysis of the deposited data

Results flagged for a closer look

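Wfdc17 and Ccl9 had RBC effects that were lower in HSCs than in LSK cells, by -2.77 and -1.74 on the log2 scale, both past the threshold of the limma interaction term. The call of Ccl9 was lost in 11 of 16 alternative settings, with adjusted p-values up to 0.235, and that of Wfdc17 in 2 of 16. For Ccl3, every HSC library with RBCs lay below those without and every LSK library with RBCs above those without, with a difference of -1.76. In the same fit this difference was not called for Ccl3 (limma adjusted p = 0.094), and neither was its change in LSK cells (log2 fold change 0.52). The genes were chosen with this contrast known, so these values, like the calls of Wfdc17 and Ccl9, are a description.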

How the results depend on the processing

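No comparison of the 6 genes turned its direction past the threshold under any alternative. Calls over all genes moved too. With all genes above 0 tested, they went from 93 to 50 in HSCs and from 121 to 70 in LSK cells. For the difference between the effects they went from 13 to 2 with that filter and to 1 without the mean-variance trend. They were 12 with a pseudocount of 0.1, 11 with the filter on 1 library and 13 with TPM. Counts of members called moved as follows. For the difference with RBCs in HSCs, 4 became 2 when every gene with any value above 0 was tested, and 3 to 4 with a library left out. In LSK cells, 1 became 2 with only the compared groups fitted, and 0 to 2 with a library left out. For the difference between these effects, 2 became 1 with a pseudocount of 0.1, with a filter that asked 1 library to reach an FPKM of 1, or with FPKM scaled to TPM. It became 0 with all genes above 0 tested or without the mean-variance trend, and 1 to 2 with a library left out. Between LSK cells and HSCs without RBCs, 4 became 2 to 4 with a library left out, and 5 remained called with RBCs in every setting. The genes of the lists called with RBCs went from 5 to 2 with all genes above 0 tested, 3 without the trend, 8 without the fold threshold, 3 with only the compared groups fitted and 2 to 4 with a library left out. The causes were not tested, beyond the number of genes or libraries each setting uses.

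The replicate numbers did not pair the libraries: deviations of same-numbered libraries from their group means correlated at -0.067 to 0.095. With the replicate number as a block, 4, 1 and 2 members were called in HSCs, in LSK cells and in the difference between the effects, 3 between LSK cells and HSCs without RBCs, and 5 with RBCs. The block gave 6 genes of the lists, against 5 without it, and 1 neighbouring gene, against 0 without it. Over all genes it gave 93 calls in HSCs, 106 in LSK cells and 8 in the difference between the effects, against 93, 121 and 13 without it.

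With 2 libraries in each group, leaving 1 out leaves a single library that is assumed to vary like the other groups. Reads of 10 to 50 for Ccl6 and of 16 for Ccl3 in HSCs limit what can be said of their levels there.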
